A study of Mus musculus with 4 samples.

Results

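The Hox cluster genes comprise 39 protein-coding genes in 4 chromosomal clusters, chosen as the genes of the GENCODE M21 annotation of the mouse genome (mm10) whose symbol is Hox, a cluster letter from a to d and a number. They are 39 of 21951 protein-coding genes in that annotation. The clusters are Hoxa with 11 genes, Hoxb with 10, Hoxc with 9 and Hoxd with 9, and the number in a symbol is the paralog group, from 1 to 13. Within each cluster the genes lie on the same strand.

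Hox genes encode homeodomain transcription factors that give cells their position along the body axis. Genes of 1 paralog group descend from a common ancestor and often act redundantly, and low-numbered groups lie at the end of the cluster that is used first and most anteriorly. In the kidney the Hox11 genes Hoxa11, Hoxc11 and Hoxd11 are needed together for the ureteric bud to form and branch, and their proteins are known to act with Eya1 and Pax2 on Six2 and Gdnf. Eya1 is a transcriptional coactivator and phosphatase that does not bind DNA by itself.

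ChIP-seq for Eya1 was done on whole kidneys of the mouse at E13.5, a mixture of cell types, with 80 kidneys in each assay. The animals were Eya1 HA-FLAG knockins, in which the endogenous gene encodes a tagged Eya1, and anti-FLAG beads captured it. There were 4 samples, which were 2 Eya1 immunoprecipitations, 1 Input and 1 IgG control. Replicate 1 gave 1.02 times as many peaks as replicate 2, but its peaks were wider, with medians of 1069 bp for replicate 1 against 188 bp for replicate 2. Control samples were not analysed here, and no peak list of Input or IgG stands beside the Eya1 lists. The lists carry no read counts or scores, so depth is unknown and the strength of a peak cannot be ranked.

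To ask which Hox genes had Eya1 at their start, a gene was counted when a peak lay within 1 kb of any of its annotated transcript starts. A gene was counted as shared when peaks of both replicates lay there and overlapped by at least 1 bp. Replicate 1 had a peak at 14 of 39 Hox genes (35.9%), beside 20.2% of all protein-coding genes. Replicate 2 had a peak at 10 (25.6%), beside 14.7%. Shared peaks lay at 8 Hox genes (20.5%), beside 11.3%, and 16 genes (41.0%) had a peak in either list, beside 23.5%. The remaining 23 Hox genes had no peak within 1 kb in either list. No test was made on these counts, because each list is 1 sample and neighbouring Hox genes share peaks.

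**Figure D1:**
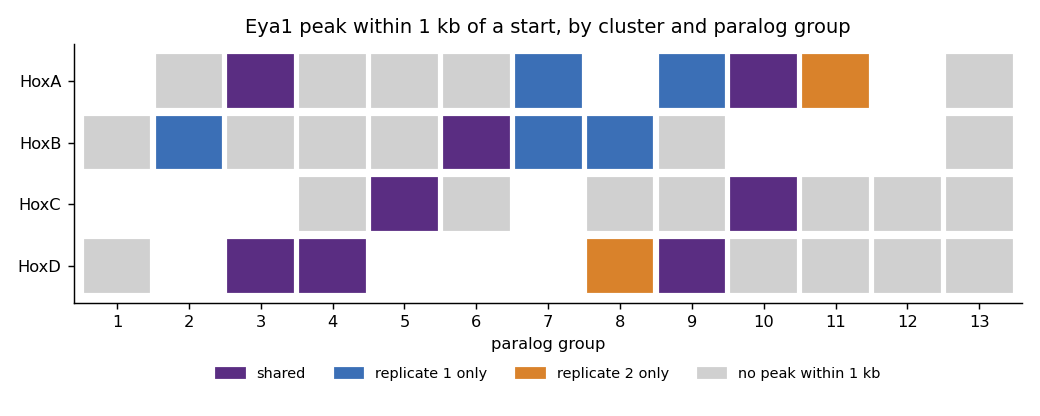
The grid places 38 of the 39 Hox genes by paralog group (x axis, 1 to 13) and cluster (y axis), and a blank place holds no gene or a gene not shown. Purple marks the 8 genes with a shared peak within 1 kb of a start and blue 5 with a peak in replicate 1 only. Orange marks the 2 in replicate 2 only and grey the 23 with none. Of the 9 genes of groups 11 to 13, 8 are grey, and 23.5% of all protein-coding genes have a peak in either list.

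The 8 genes with a shared peak were Hoxa3, Hoxa10, Hoxb6, Hoxc5, Hoxc10, Hoxd3, Hoxd4 and Hoxd9. A peak in replicate 1 alone lay at 6 genes, among them Hoxa7, Hoxa9, Hoxb2, Hoxb7 and Hoxb8, and Hoxa11 and Hoxd8 had a peak in replicate 2 alone. By cluster, peaks in either list lay at 6 of 11 Hoxa genes, 4 of 10 Hoxb genes, 2 of 9 Hoxc genes and 4 of 9 Hoxd genes. The share over all protein-coding genes was 23.5%. In Hoxb only 1 of the 4 genes, Hoxb6, was listed by replicate 2, whereas in Hoxd replicate 2 listed 4 genes and replicate 1 listed 3.

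By paralog group, the genes with a peak were spread over most groups. Among groups 1 to 3, the anterior genes, 4 of 8 had a peak in either list, and both shared genes were of group 3. These shared genes, Hoxa3 and Hoxd3, were listed at upstream starts only. Among groups 4 to 8, 7 of 15 had a peak and 3 were shared. Among groups 9 and 10, 4 of 7 had a peak and 3 were shared. Groups 11 to 13, the genes of the posterior body, held 9 genes, of which 1 had a peak (11.1%), and none was shared. Group 7 was the only group in which all genes were listed, both by replicate 1 alone. Groups 12 and 13 had no gene with a peak. Over all protein-coding genes 23.5% had a peak in either list and 11.3% had a shared peak. The groups are small, so these counts are descriptions and no difference between groups was tested.

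The Hox11 group, whose genes act with Eya1 in the kidney, was therefore followed gene by gene. Hoxa11 (chr6:52242106-52245810, minus strand) had no replicate 1 peak within 1 kb, and the nearest lay 5196 bp from a start. Replicate 2 placed a peak of 210 bp at chr6:52245026-52245235, 560 bp from the Hoxa11 start and inside the gene. That peak lay in coding sequence of Hoxa11 and in an exon of Hoxa11os, the antisense RNA, and was 8 bp from a start of Hoxa11os. Its sequence was 73.8% G and C with 30 CpG dinucleotides. A further replicate 2 peak of 140 bp, chr6:52243829-52243968, lay in an intron of Hoxa11, 1827 bp from the Hoxa11 start and 425 bp from a start of Hoxa11os. Because ChIP-seq does not tell strands apart, these peaks cannot be assigned to Hoxa11 or Hoxa11os.

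Hoxd11 (chr2:74679557-74687016, plus strand) had its nearest peaks at 15162 bp in replicate 1 and 1269 bp in replicate 2. The replicate 2 peak, chr2:74683592-74683743, was 152 bp wide, lay in an intron of Hoxd11, and was 146 bp from the start of the noncoding RNA gene Gm28309. It contains a run of alternating T and G bases. Hoxc11 (chr15:102954427-102957708, plus strand) had its nearest peaks at 11789 bp and 13144 bp. Thus no Hox11 gene had a peak in both lists, and replicate 1 had none within 1 kb of any of the 3. The study, from its own peak set and gene assignment, names Hoxa11 and Hoxd11 among the genes targeted by Eya1. It places them among targets with the active histone mark H3K27ac and lower expression in Eya1-deficient cells. Expression and histone marks were not analysed here. The sequences of the 3 replicate 2 peaks inside Hox11 genes are printed here because they are the only peaks of either list inside a Hox11 gene, read from the GRCm38 reference (mm10) in the direction of the gene, with CG dinucleotides in capitals.
Hoxa11 coding peak: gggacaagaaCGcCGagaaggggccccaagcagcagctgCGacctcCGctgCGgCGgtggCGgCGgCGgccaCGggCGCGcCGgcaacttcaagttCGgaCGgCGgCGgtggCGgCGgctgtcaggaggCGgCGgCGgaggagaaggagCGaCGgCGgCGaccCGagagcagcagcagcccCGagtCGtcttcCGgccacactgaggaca
Hoxa11 intron peak: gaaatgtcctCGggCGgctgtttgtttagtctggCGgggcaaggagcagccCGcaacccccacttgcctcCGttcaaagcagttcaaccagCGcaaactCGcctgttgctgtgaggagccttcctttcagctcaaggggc
Hoxd11 intron peak: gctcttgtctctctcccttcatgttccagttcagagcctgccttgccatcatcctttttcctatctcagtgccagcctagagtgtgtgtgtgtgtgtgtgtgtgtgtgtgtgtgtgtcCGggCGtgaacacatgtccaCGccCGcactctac

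Peaks found by both replicates formed 6 merged intervals, and each narrow replicate 2 peak lay wholly inside a wider replicate 1 peak. At Hoxb6, replicate 1 had a peak of 2200 bp, chr11:96292363-96294562, that included the start. Replicate 2 had 2 peaks inside it, of 169 bp and 153 bp, both in an intron of Hoxb6, and the nearer lay 841 bp from the start. At Hoxa3, which patterns the pharyngeal arches, replicate 1 had a peak of 2307 bp, chr6:52211042-52213348, over an upstream start, and replicate 2 had 2 peaks of 166 bp each within it, the nearer at 381 bp. At Hoxc10, replicate 1 had a peak of 2040 bp, chr15:102966216-102968255, and replicate 2 a peak of 133 bp, 775 bp from the start.

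Hoxd9 was covered over its full length by replicate 1, with a peak of 3557 bp (chr2:74697485-74701041), and replicate 2 marked 117 bp of it, 256 bp from the start. At the shared 5′ region of Hoxd3 and Hoxd4, replicate 1 had a peak of 1148 bp (chr2:74711690-74712837) and replicate 2 had 3 peaks of 165 bp, 189 bp and 117 bp. At Hoxa10, replicate 1 had a peak of 966 bp (chr6:52239634-52240599), 196 bp from a start, and replicate 2 a peak of 389 bp, its widest in the 4 clusters. Replicate 2 had a second Hoxa10 peak of 185 bp near an internal start, where replicate 1 had none. Of the 10 replicate 2 peaks in shared intervals, 4 are printed next, from 4 of the 6 intervals, as examples of places in Hox genes that both samples listed, with CG dinucleotides in capitals and each in the direction of its gene.
Hoxb6, chr11:96293317-96293485: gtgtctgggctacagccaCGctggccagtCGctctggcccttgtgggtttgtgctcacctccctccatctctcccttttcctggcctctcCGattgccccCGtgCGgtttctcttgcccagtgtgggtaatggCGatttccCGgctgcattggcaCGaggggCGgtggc
Hoxc10 and Hoxc5, chr15:102967571-102967703: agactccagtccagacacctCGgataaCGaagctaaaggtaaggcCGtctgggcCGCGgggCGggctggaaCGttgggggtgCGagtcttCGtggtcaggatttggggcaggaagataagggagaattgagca
Hoxd3 and Hoxd4, chr2:74712546-74712662: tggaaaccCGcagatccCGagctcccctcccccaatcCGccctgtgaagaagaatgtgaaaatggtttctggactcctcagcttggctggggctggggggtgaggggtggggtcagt
Hoxa3, chr6:52212569-52212734: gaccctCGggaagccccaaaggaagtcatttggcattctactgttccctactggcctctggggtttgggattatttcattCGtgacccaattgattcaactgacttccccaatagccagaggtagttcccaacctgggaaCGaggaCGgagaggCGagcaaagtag

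Among the genes listed by a single replicate, Hoxb8 had the widest replicate 1 peak of the clusters, 4438 bp at chr11:96282168-96286605, at the 99.9 percentile of widths in that list. It covered 92.3% of Hoxb8 and ended 18 bp before a start of Hoxb7, the gene whose promoter is widely used to drive transgenes in the ureteric bud. A second replicate 1 peak of 1112 bp lay inside Hoxb7. The nearest replicate 2 peaks were 10592 bp from Hoxb8 and 4602 bp from Hoxb7. Hoxb2 had a replicate 1 peak of 662 bp at 106 bp, and Hoxa7 one of 507 bp at 54 bp. Hoxa9 had a replicate 1 peak of 2112 bp that also held Mir196b, a microRNA gene. Hoxd8 had only a replicate 2 peak, of 209 bp and 76.6% G and C, directly on a start.

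**Figure D2:**
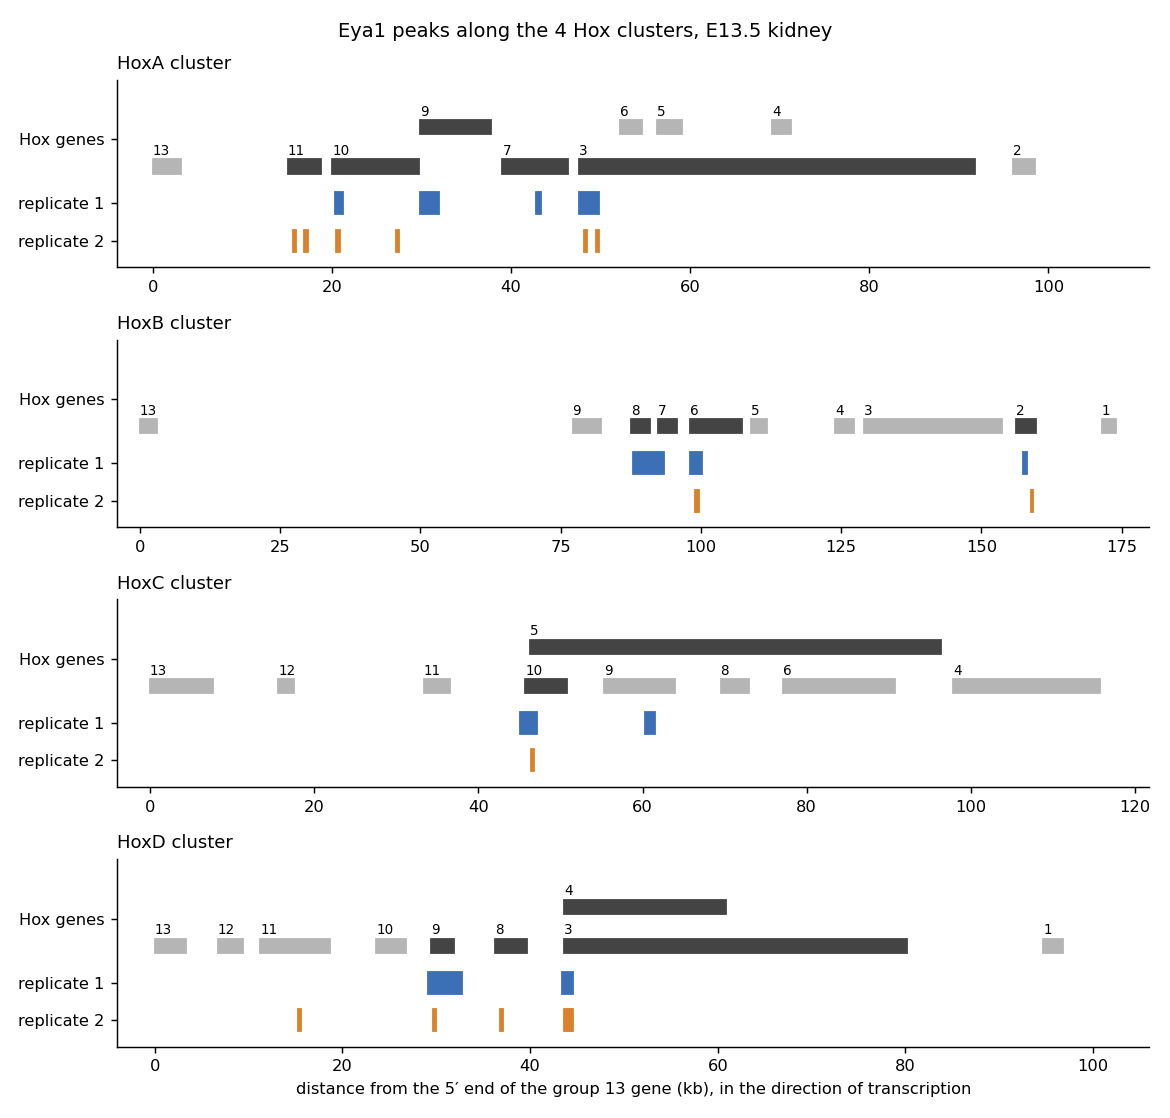
Each panel shows a cluster with distance in kb from the 5′ end of its group 13 gene on the x axis, 38 of the 39 Hox genes as bars labelled by paralog group (dark with a peak within 1 kb of a start, grey without), replicate 1 peaks in blue and replicate 2 peaks in orange. Neither the gene not shown nor any peak at it is drawn, and peaks under 0.35 kb are drawn 0.35 kb wide; the group 12 and 13 genes have no peak within 1 kb, and the peaks of Hoxc sit around Hoxc10 and Hoxc9.

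Several of these calls rest on particular starts. Hoxc5 was listed through a noncoding transcript that starts beside Hoxc10, and its coding start lay 31145 bp from the nearest replicate 1 peak and 46112 bp from the nearest replicate 2 peak. Hoxd4 was listed through a noncoding transcript that starts beside Hoxd3. The nearest coding start of Hoxd4 lay 9141 bp from the nearest replicate 1 peak and 9316 bp from the nearest replicate 2 peak. Hoxa9 was listed through noncoding starts, and its nearest coding start lay 1593 bp from the replicate 1 peak. Hoxa3 and Hoxd3 were listed at their most upstream coding starts. The other coding start of Hoxa3 lay 24402 bp from the nearest replicate 1 peak and 27396 bp from the nearest replicate 2 peak. For the nearest other coding start of Hoxd3 the distances were 20076 bp and 20251 bp. With starts of coding transcripts alone, replicate 1 had 11 Hox genes, replicate 2 had 8, and 6 were shared, which is 28.2%, 20.5% and 15.4% beside 19.9%, 14.5% and 11.1% of all protein-coding genes. Hoxb7 with Hoxb8, Hoxc5 with Hoxc10, and Hoxd3 with Hoxd4 each shared an interval. A member had 2.13 starts on average, fewer than the 4.26 of all protein-coding genes.

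The 23 genes without a peak within 1 kb lay between 1.27 and 87.9 kb from the nearest peak in either list, with a median of 11.8 kb. In Hoxa they were Hoxa2, Hoxa4, Hoxa5, Hoxa6 and Hoxa13, at 2.32 to 19.3 kb. In Hoxb they were Hoxb1, Hoxb3, Hoxb4, Hoxb5, Hoxb9 and Hoxb13, at 7.97 to 87.9 kb, with Hoxb13 the farthest of all members. In Hoxc they were Hoxc4, Hoxc6, Hoxc8, Hoxc9, Hoxc11, Hoxc12 and Hoxc13, at 4.36 to 45.1 kb. In Hoxd they were Hoxd1, Hoxd10, Hoxd11, Hoxd12 and Hoxd13, at 1.27 to 50.1 kb. Hoxa6 was close to the limit at 2.32 kb, and Hoxd11 closer still, while Hoxd1 stood apart from the peaks at Hoxd3 on its own end of the cluster.

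**Figure D3:**
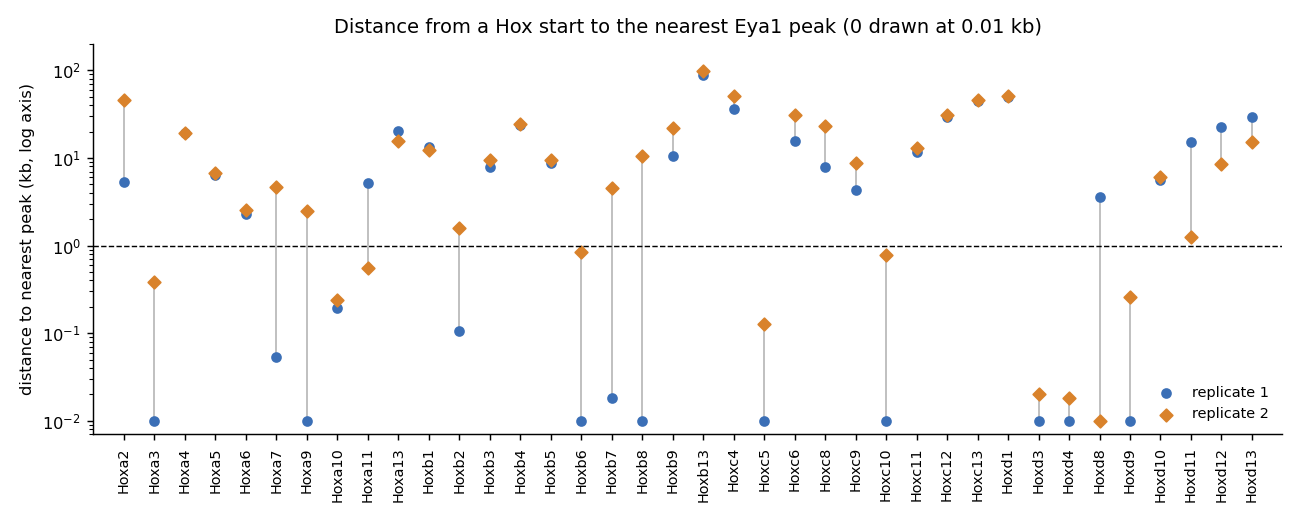
For 38 of the 39 Hox genes the plot gives the distance in kb from a start to the nearest replicate 1 peak (blue circles) and replicate 2 peak (orange diamonds) on a log axis, with a distance of 0 drawn at 0.01 kb and the 1 kb limit dashed. Hoxb13 is the farthest, at 87.9 and 99.0 kb. Hoxd1 lies at 50.1 and 50.3 kb.

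Peaks in the clusters were next compared with peaks elsewhere. From the first to the last Hox gene the clusters span 105 kb (Hoxa, chromosome 6), 174 kb (Hoxb, chr11:96194316-96368256), 116 kb (Hoxc, chr15:102921103-103036852) and 96.8 kb (Hoxd, chr2:74668310-74765142). Replicate 1 had 13 peaks in these 492 kb, or 2.64 per 100 kb against 0.157 in the genome. Replicate 2 had 16, or 3.25 per 100 kb against 0.153. The clusters also hold 7.93 protein-coding Hox genes per 100 kb against 0.805 protein-coding genes in the genome, so peaks and genes were both denser there. Replicate 1 peaks covered 7.39% of Hoxa, 4.84% of Hoxb, 2.87% of Hoxc and 4.86% of Hoxd. The coverage by replicate 2 was 1.19%, 0.277%, 0.115% and 0.980% in the same order, so Hoxc was lowest in both lists and Hoxa highest.

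Outside the clusters the nearest peaks lay 60.5 to 757 kb away. Peaks were sparse in the genome too, at 0.157 per 100 kb in replicate 1 and 0.153 in replicate 2. Whether the flanks hold fewer peaks than the rest of the genome was not tested. The nearest peak beyond Hoxa lay 684 kb from the Hox1 side, at Cbx3, and 453 kb from the Hox13 side, at Tax1bp1. Beyond Hoxd it lay 757 kb from the Hox13 side, at Atp5g3, and 60.5 kb from the Hox1 side, at Mtx2. Beyond Hoxb the distances were 128 kb at Ube2z and 421 kb at Cbx1. Beyond Hoxc they were 250 kb at Atp5g2 and 236 kb at Copz1 for replicate 1. Replicate 2 had the same neighbouring gene on every side except that of Copz1, where its nearest peak lay 286 kb away at Zfp385a. Evx1 and Evx2, the homeobox genes that flank Hoxa13 and Hoxd13, had no peak within 1 kb.

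The 2 lists merged into 19 intervals in the clusters, of which 15 lay within 1 kb of a Hox start and 4 did not. Of the 19, 6 were in both lists (31.6%), 7 in replicate 1 alone (36.8%) and 6 in replicate 2 alone (31.6%), beside 44.1%, 33.6% and 22.2% of 5493 intervals in all. None of the 4 intervals beyond 1 kb was in both lists. They were the intron peaks of Hoxa11 and Hoxd11 described above, a replicate 2 peak in Hoxb2 and a replicate 1 peak in Hoxc9. The Hoxb2 peak was 159 bp wide and lay in coding sequence (chr11:96353234-96353392). The Hoxc9 peak of 1283 bp overlapped coding and untranslated sequence, 4356 bp from the nearest Hoxc9 start (chr15:102981388-102982670). All 4 lay inside a Hox gene, so no interval beyond 1 kb of a Hox start lay in sequence between genes. Peaks also fell within 1 kb of a start for 10 of 46 other genes annotated in the clusters, beside 23.5% of all protein-coding genes. Only 3 of the 46 genes are protein-coding, so the share beside them is of a different kind of gene. Among the 10 genes with a peak were Mir196b, Hoxa11os, Hoxd3os1, Gm28308, Gm28032, Gm28309, Gm28793 and Gm44463. Several of these lay at peaks already counted for Hox genes.

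Replicate 1 peaks at Hox promoters were wide. The 12 peaks ranged from 507 to 4438 bp with a median of 1966 bp, and 6 of them (50.0%) were at least 2 kb, whereas the 3989 replicate 1 peaks at promoters of all protein-coding genes had a median of 1100 bp and 8.97% reached 2 kb. The 11 replicate 2 peaks at Hox promoters ranged from 117 to 389 bp with a median of 169 bp, beside 199 bp for all promoter peaks. Width was therefore larger at Hox genes in replicate 1 and not in replicate 2. Midpoints lay downstream of the nearest Hox start for 9 of 12 replicate 1 peaks (75.0%) and 10 of 11 replicate 2 peaks (90.9%), beside 76.5% and 78.6% of all promoter peaks. The median offsets were 544 and 464 bp beside 148 and 144 bp. Hox genes have fewer annotated starts, 2.13 against 4.26 on average, and their replicate 1 peaks are wider. What part these have in the offsets was not tested. Exons of coding transcripts took 0 to 69.3% of the replicate 1 peaks, with a median of 35.3%, beside a median of 29.2% for all promoter peaks. For replicate 2 the order was the opposite, with a median of 28.6% at Hox promoters beside 40.7%.

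**Figure D4:**
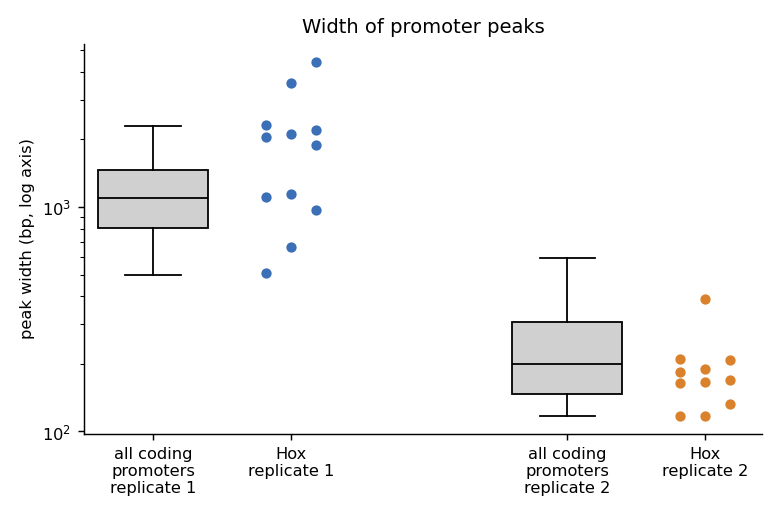
Peak width in bp on a log axis for promoter peaks of all protein-coding genes (grey boxes: quartiles and median, whiskers from the 5 to the 95 percentile) and for Hox promoter peaks (points, 12 in replicate 1 and 11 in replicate 2). The replicate 1 Hox median is 1966 bp against 1100 bp, and the replicate 2 Hox median is 169 bp against 199 bp.

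Since most Eya1 peaks lie at promoters, the base composition of Hox promoters was set beside their occupancy. The window was 300 bp, from 250 bases before to 50 after the 5′ end of the gene, and CpG content is given as the observed over expected ratio. Hox promoters had a median ratio of 0.745, with a range of 0.253 to 1.23, beside 0.524 for all protein-coding genes. The 16 Hox genes with a peak had a median of 0.698 (0.255 to 0.970) and the 23 without had 0.805 (0.253 to 1.23), so the ranges overlapped widely. Over all protein-coding genes the order was the opposite, 0.812 with a peak and 0.384 without. Of the Hox promoters, 2 of 16 with a peak (12.5%) and 12 of 23 without (52.2%) were CpG-rich, defined as at least 55% G and C and a ratio of at least 0.65, beside 65.3% and 24.3% of all genes. Hoxa4, which had no peak within 1 kb, had the highest ratio, 1.23, and Hoxd11 the lowest, 0.253. The Hoxd11 window lay at the start of a noncoding transcript, and the window at its coding start had a ratio of 0.875. With the window placed at the start nearest to a peak, the medians were 0.727 with a peak and 0.817 without. The CpG-rich share was taken at the 5′ end alone.

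**Figure D5:**
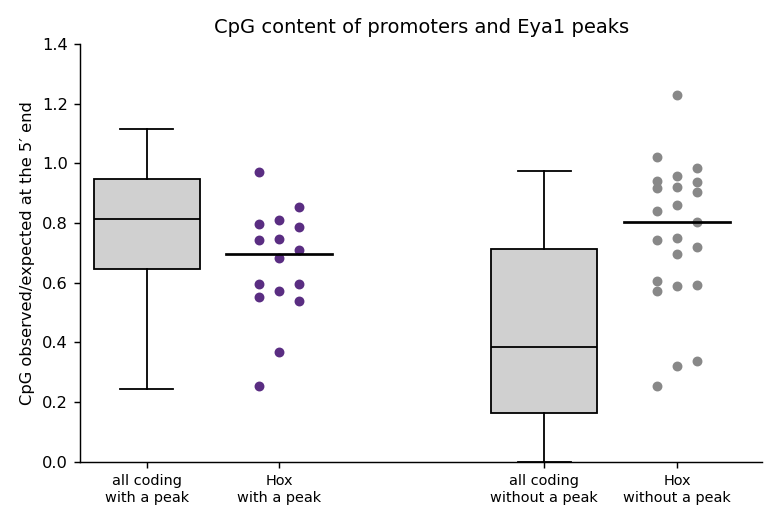
Observed over expected CpG ratio at the 5′ end for all protein-coding genes with and without a peak within 1 kb (grey boxes: quartiles and median, whiskers from the 5 to the 95 percentile) and for Hox genes (points, with the median as a line). Hox medians are 0.698 with a peak and 0.805 without, and the boxes have medians of 0.812 and 0.384.

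Short motifs were searched on both strands of the same 300-bp windows. The letters CCAAT, the core of the NF-Y site, were in 26 of 39 Hox promoters (66.7%) and 39.0% of all. The letters TGATNNAT, a core bound by PBX with HOX proteins, were in 8 (20.5%) and 7.26%. GGGCGG, the SP site, was in 15 (38.5%) and 43.0%, and TGACAG, a MEIS site, in 4 (10.3%) and 17.6%. TCAGGTTTC, the MEF3 site that Six2 and its relatives recognise, was in 0 Hox promoters and 0.524% of all. Windows of 200 bp on the peak midpoints of the clusters were also searched. CCAAT was in 2 of 13 replicate 1 windows (15.4%) and 6 of 16 replicate 2 windows (37.5%), beside 11.4% and 10.4% of all windows. Most replicate 2 peaks were narrower than the window, so a match can lie outside the peak. Over whole peaks of the clusters, CCAAT was in most replicate 1 peaks, which are wider, and in a minority of replicate 2 peaks. These are matches of letters and not measured sites.

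RE1, the element bound by the repressor REST, was searched in the same peak windows with at most 2 mismatches. It was found in 2 of 13 replicate 1 windows (15.4%, beside 5.42% of all) and 2 of 16 replicate 2 windows (12.5%, beside 16.8% of all). The same match at Hoxa10 lay in the windows of both lists, Hoxd9 held 2 overlapping matches in replicate 1, and the window of the Hoxa11 intron peak held a match just outside the peak. The matches are printed with mismatches to the consensus in capitals, each with 2.
Hoxa10, chr6:52240119-52240135, plus strand: tttCCaaccatagagag
Hoxd9, chr2:74699314-74699330, minus strand: ttcagaaTcctggccaC
Hoxd9, chr2:74699324-74699340, plus strand: ttcTgaaccttaCagag
Hoxa11, chr6:52243972-52243988, plus strand: ttcagcacctgggccGC

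Genes that work with Hox proteins or control the clusters were counted by the same rule. Of 9 TALE-class cofactors, the homeodomain partners of Hox proteins, 8 had a peak in either list and 6 were shared, among them Meis2, Meis3, Pbx2, Pbx3 and Pknox1. The replicate 1 peak at Meis2 was 4051 bp wide, and the peaks at Pbx3 lay directly on a start in both lists. Of 19 Trithorax and Polycomb genes, whose products keep Hox genes on or off, 14 had a peak and 5 were shared. The shared ones were Kmt2b, a histone methyltransferase of the Trithorax group, and the Polycomb genes Rnf2, Ring1, Pcgf2 and Phc2. Of 14 retinoic acid genes, 3 had a peak, and the receptors Rxra and Rxrb were shared. Of 8 ParaHox and Evx genes, relatives of the Hox genes, none had a peak within 1 kb in either list. The cofactor genes stood at 8 of 9 with a peak beside 16 of 39 Hox genes and 23.5% of all. The lists are short and were chosen with earlier results of these data known, so these shares are descriptions.

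Of 7 genes for partners and targets of Hox11 in the kidney, 4 had a peak in replicate 1 and 0 in replicate 2, beside 20.2% and 14.7% of all protein-coding genes. Six2, the nephron progenitor factor, had a replicate 1 peak of 1137 bp at 258 bp from its start, and its nearest replicate 2 peak was 479 kb away. Gdnf, the ligand that draws out the ureteric bud, had a replicate 1 peak of 2441 bp on its start and a nearest replicate 2 peak at 358 kb. Sall1, a zinc finger factor of nephron progenitors, had a replicate 1 peak of 3742 bp on a start, and a replicate 2 peak of 188 bp lay wholly inside it, 1.92 kb from a start and so beyond the limit. Pax2 had nearest peaks at 171 kb in replicate 1 and 63.4 kb in replicate 2. The study, from its own peak set, reports Eya1 with Six2 at the Pax2 promoter, so the lists used here differ from that set at the promoter. It also reports Eya1 without Six2 at a conserved element far upstream of that promoter. The replicate 2 peak at 63.4 kb lay upstream of Pax2 too, and whether it is that element was not tested. Eya1 itself had 8 replicate 1 peaks in its gene, all 8 overlapping exons, and 0 replicate 2 peaks, with the nearest replicate 2 peak 642 kb away. Without Eya1 the replicate 1 count was 3 of 6 genes, and what part the overlap with exons has in the Eya1 peaks was not tested.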

How the data were processed

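Eya1 ChIP-seq was analysed from 2 peak lists, 1 for each Eya1 sample. In the study's methods the authors used Bowtie to align reads to mm10 and MACS to call peaks, with no fixed cutoff given. They called peaks against Input and against IgG and kept those found with both controls. The submitters' processing notes name HISAT2 instead. The deposited lists hold 3 columns, chromosome, start and end, with no score, so depth, cutoff and control behind a peak are unknown. Replicate numbers came from the sample titles, which do not say whether the samples came from separate pools of embryos.

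Starts were printed 1-based and set against GENCODE M21 with Python 3.11.15, numpy 2.4.6 and pysam 0.24.0. A peak counted for every gene with a transcript start within 1 kb. Distances of members were checked with bedtools 2.31.1, with 0 of 78 different. Tested on simulated data, the calls were right for 600 of 600 planted genes, and 500 of 500 planted RE1 elements were found. The planted genes each had a single start and no near neighbour. The simulation therefore did not cover genes with several starts or with shared peaks. Sequence came from the RefSeq GRCm38.p6 genome, and 0 peaks lay beyond a chromosome end.

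Each list is 1 sample, so no test was made, and counts are set beside those of all protein-coding genes. Single values of 1 member and 1 cofactor gene are not reported here. Members with a peak within 1 kb and the Hox11 genes have values in both lists, and the others have a range by cluster. Members and gene lists were chosen with earlier results of these data known. Alternatives varied the distance, the starts, the part of the peak, the overlap, the width and the replicates used.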

Additional observations from a re-analysis of the deposited data

How the results depend on the processing

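Of 95 alternatives over 11 results, 78 left the value within 1.5 times the main count, or within 1 SD for CpG content, and 17 moved it. With a distance of 5 kb, replicate 2 listed 16 Hox genes and the Hox11 group had 2 genes with a peak. At 2 kb the Hox11 group also had 2, since Hoxd11 was added, and at 500 bp it had 0. At 2 kb, 1 interval lay beyond the distance from every Hox start. With the 5′ end of each gene as its only start, 7 intervals did. Keeping only peaks of at least the median width of their list left 5 genes in replicate 2, 2 shared genes, Hoxd3 and Hoxd4, and 1 interval beyond 1 kb. Requiring an overlap of 50% of both peaks left 0 shared genes, since replicate 2 peaks are much narrower than replicate 1 peaks. Leaving out each replicate in turn gave 10 to 14 for genes in either list, 0 to 1 for the Hox11 group and 1 to 5 for intervals beyond 1 kb. Without replicate 1, Hoxa had 3 genes and Hoxb 1, and Hoxc had 1 with coding starts or with the nearest gene alone. No paired analysis was possible because no test was made. The lists give no depth, so a gene without a peak cannot be told from a gene whose signal missed the cutoff.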
